A study of Mus musculus with 6 samples.

Results

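Scavenger receptors are the cell surface and lysosomal proteins with which macrophages bind and take up modified lipoproteins, dying cells, hemoglobin complexes and microbes. Of the 46603 genes in the deposited count table, 10 were examined here, chosen by gene symbol from a list of receptors of this kind: Msr1, Marco, Cd36, Scarb1, Scarb2, Cd68, Olr1, Cd163, Cd5l and Mrc1. They were measured by RNA-Seq in kidney cells that were held back by magnetic beads carrying an antibody to CD11B (the integrin alpha M chain, present on monocytes, macrophages, granulocytes and NK cells), 3 days after bilateral ischemia/reperfusion injury (IRI-AKI) with 28 minutes of clamping. All mice were 10- to 12-week-old males carrying the Rosa26-LSL-RARaT403X allele, which encodes a truncated, dominant negative retinoic acid receptor alpha behind a floxed stop. In the 3 PTEC DN RAR libraries the mice also carried PEPCK-Cre, which is active in proximal tubular epithelial cells (PTECs), and in the 3 Cre– control libraries they did not. The comparison therefore asks how the CD11B+ cells of the kidney differed when retinoic acid signaling was blocked in the tubular epithelium and not in those cells themselves. PEPCK-Cre is not active in every nephron cell, and the beads select on 1 surface protein only, so each library is a mixture of cells.

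Scavenger receptors are grouped into classes by their structure and not by descent from 1 ancestor. Class A receptors are trimers with a collagen-like stalk, class B receptors are hairpin-shaped proteins with a membrane anchor at each end, CD68 is a heavily glycosylated lysosomal protein, OLR1 and the mannose receptor carry C-type lectin domains, and CD163 and CD5L are built of scavenger receptor cysteine-rich domains. In the injured kidney, macrophages use such receptors to clear dead tubular cells, lipid and free hemoglobin, and several of these genes are also used as markers of macrophage states.

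In PTEC DN RAR libraries 6 of the 10 scavenger receptor genes fell (Marco, Cd5l, Msr1, Cd36, Mrc1 and Cd68), with log2 fold changes from -3.09 to -0.44, and none rose. The other 4 (Cd163, Olr1, Scarb1 and Scarb2) did not pass the test. Values are CPM, the reads counted on a gene scaled by TMM to a common library size, and a gene passed where edgeR's quasi-likelihood test gave an adjusted p under 0.05 (Benjamini-Hochberg over the 15440 genes that passed the filter on low counts, among them all 10). Of those 15440 genes, 17.1% were called lower and 23.6% higher, against 6 and 0 of these 10. In 6 of the 10 all PTEC DN RAR values lay under all Cre– control values, a pattern found in 24.2% of all genes tested, and in 0 of the 10 did they all lie above, against 29.2% of all genes. The log2 fold changes (PTEC DN RAR minus Cre– control) of the 10 had a median of -0.82, where all genes tested had a median of 0.04. At an unadjusted p under 0.05 the number lower was 8 and the number higher was 0. The share of all genes at that threshold was not counted. DESeq2 and limma-voom also called 0 of the 10 higher, against 3548 and 3566 of all 15440 genes. In a bulk library, fewer cells of a type and less RNA per cell cannot be told apart.

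**Figure D1:**
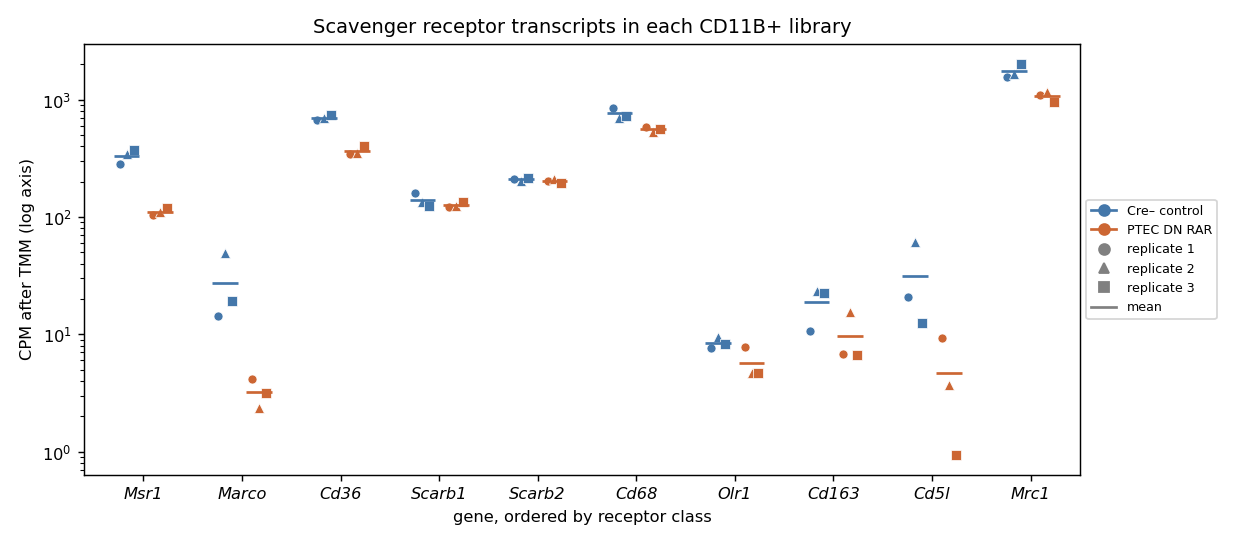
CPM after TMM scaling on a log axis for the 10 scavenger receptor genes, ordered by receptor class, in the 3 Cre– control libraries (blue) and the 3 PTEC DN RAR libraries (orange); the marker shape gives the replicate and the horizontal line the group mean. The groups are apart for Msr1, Marco, Cd36, Cd68, Cd5l and Mrc1, meet for Scarb1 and Scarb2, and the control values of Marco and Cd5l are widely spread, with replicate 2 at 48.9 and 60.8 CPM.

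The genes differed widely in how strongly they were expressed. Levels of different genes can be compared only per length of transcript, so CPM was divided by the kilobases of exon sequence in GENCODE M21. On this scale Cd68 stood highest in the Cre– controls at 606 CPM per kb, followed by Mrc1 at 275, Cd36 at 195, Msr1 at 52.3 and Scarb2 at 33.5, and the libraries of neighboring genes in this order did not overlap. Scarb1 (16.3), Cd5l (15.4) and Marco (14.3 CPM per kb) came next and overlapped with one another, and Cd163 (3.44) and Olr1 (2.38 CPM per kb) were lowest and also overlapped. In PTEC DN RAR libraries the first 3 genes kept their order at 446, 168 and 102 CPM per kb, while Msr1 (17.6) stood below Scarb2 (32.3 CPM per kb). Cd5l, Cd163, Marco and Olr1 then lay together at the bottom, between 1.60 and 2.29 CPM per kb, each overlapping the next. The reads of the 10 genes together made up 0.363%, 0.394% and 0.437% of all gene counts in the Cre– control libraries, against 0.246%, 0.25% and 0.241% in PTEC DN RAR libraries.

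The class A receptors Msr1 and Marco bind oxidized lipoproteins, bacteria and debris through charged surfaces. Msr1 (ENSMUSG00000025044, GRCm38 chr8:39581685-39642673, minus strand) measured 280, 344 and 371 CPM in Cre– control replicates 1, 2 and 3 and 104, 110 and 119 CPM in PTEC DN RAR replicates 1, 2 and 3. The groups were far apart, and each was tight. The mean was 332 ± 46.8 CPM in controls and 111 ± 7.52 CPM in PTEC DN RAR libraries (SD, n = 3 each), the latter 33.6% of the control mean, with a log2 fold change of -1.57 (SE 0.12, edgeR adjusted p = 0.00018) and a 95% interval from -1.85 to -1.30.

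Marco (ENSMUSG00000026390, GRCm38 chr1:120474538-120505024, minus strand), whose product is largely restricted to subsets of macrophages such as those of the lung, peritoneum and spleen, measured 14.3, 48.9 and 19.1 CPM in the Cre– controls against 4.16, 2.36 and 3.14 CPM in PTEC DN RAR libraries. All 3 PTEC DN RAR libraries were below the lowest control, and control replicate 2 was well above the other controls. The mean fell from 27.4 ± 18.8 to 3.22 ± 0.903 CPM (SD, n = 3 each), 11.7% of the control mean, and the log2 fold change of -3.09 (SE 0.46, 95% interval -4.13 to -2.04, adjusted p = 0.00147 by edgeR) had the greatest size among the 10. Without control replicate 2 it was -2.42 (adjusted p = 0.00114). Marco rested on between 100 and 1458 reads per library. Reads of Marco per 100 reads of Msr1 were 5.11, 14.2 and 5.15 in the controls and 3.98, 2.14 and 2.63 in PTEC DN RAR libraries. The groups of this ratio did not overlap.

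Among the class B receptors, Cd36 fell while Scarb1 and Scarb2 did not pass the test. CD36 takes up long-chain fatty acids and oxidized low-density lipoprotein, SCARB1 binds high-density lipoprotein and exchanges cholesterol with it, and SCARB2 is a lysosomal membrane protein that carries beta-glucocerebrosidase to lysosomes. Cd36 (ENSMUSG00000002944, GRCm38 chr5:17781690-17888801, minus strand) measured 667, 691 and 744 CPM in the Cre– controls against 346, 351 and 404 CPM in PTEC DN RAR libraries. The groups did not overlap and the gap between them exceeded the spread within either. From 701 ± 39.4 CPM the mean fell to 367 ± 32.2 CPM (SD, n = 3 each), 52.4% of the control mean, with a log2 fold change of -0.93 (SE 0.10, 95% interval -1.16 to -0.71, adjusted p = 0.000388 by edgeR).

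Scarb1 (ENSMUSG00000037936, GRCm38 chr5:125277087-125341094, minus strand) measured 159, 133 and 125 CPM against 121, 123 and 134 CPM, and the groups overlapped. Its log2 fold change was -0.14 (SE 0.11, adjusted p = 0.317 by edgeR), with a 95% interval from -0.38 to 0.10. Scarb2 (ENSMUSG00000029426, GRCm38 chr5:92441314-92506833, minus strand) measured 212, 203 and 215 CPM against 203, 212 and 194 CPM and was the steadiest of the 10 across all libraries. The interval of its log2 fold change of -0.05 (SE 0.08, adjusted p = 0.634 by edgeR) ran from -0.23 to 0.13. With libraries scaled on 25 leukocyte reference genes (genes used by most white blood cells, which themselves had a median log2 fold change of -0.20, with 8 of the 25 lower), the fold changes of Scarb1 and Scarb2 turned to 0.08 and 0.16, again without passing the test.

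Inside each library, reads of Cd36 per 100 reads of Scarb2 were 314, 340 and 346 in the Cre– controls against 170, 166 and 208 in PTEC DN RAR libraries. The groups of this ratio, which no scaling between libraries can change, did not overlap. Against Scarb1 the ratio was 421, 520 and 598 in the controls and 286, 286 and 302 in PTEC DN RAR libraries, again apart. The ratios between receptor genes given here and elsewhere restate the differences in fold change on a scale free of normalization. They were chosen after the values were seen. With 3 libraries against 3, an exact permutation test on the log ratios can give no p under 0.1. It can therefore call none of them at 0.05.

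Cd68 (ENSMUSG00000018774, GRCm38 chr11:69664213-69666153, minus strand) is the common tissue marker of macrophages and codes for a glycoprotein of late endosomes and lysosomes. It measured 855, 699 and 731 CPM in the Cre– controls against 589, 528 and 565 CPM in PTEC DN RAR libraries. The groups did not overlap, and the fall was the smallest among the 6 genes that passed. The mean went from 762 ± 82.5 to 561 ± 30.7 CPM (SD, n = 3 each), 73.6% of the control mean, with a log2 fold change of -0.44 (SE 0.11, 95% interval -0.68 to -0.20, adjusted p = 0.0116 by edgeR). Scaled on the leukocyte reference genes it was -0.23 and no longer passed (adjusted p = 0.136). Cd68 and Msr1 were also compared inside each library. Reads of Msr1 per 100 reads of Cd68 were 32.7, 49.2 and 50.8 in the controls and 17.7, 20.9 and 21.1 in PTEC DN RAR libraries, without overlap.

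The receptors with C-type lectin domains are Mrc1 and Olr1, which stood far apart in level. Mrc1 (ENSMUSG00000026712, GRCm38 chr2:14229392-14332057, plus strand) encodes the mannose receptor CD206, which takes up mannosylated glycoproteins and collagen fragments and is a usual marker of alternatively activated macrophages. Mrc1 measured 1562, 1661 and 2027 CPM in the Cre– controls against 1088, 1171 and 946 CPM in PTEC DN RAR libraries. The highest PTEC DN RAR library was well below the lowest control. The control mean was 1750 ± 245 CPM and that of PTEC DN RAR libraries 1068 ± 114 CPM (SD, n = 3 each), or 61.1% of it, with a log2 fold change of -0.71 (SE 0.13, 95% interval -1.02 to -0.41, adjusted p = 0.0041 by edgeR). Reads of Msr1 per 100 reads of Mrc1 were 17.9, 20.7 and 18.3 in the controls against 9.60, 9.42 and 12.6, without overlap. Mrc1 per 100 reads of Cd68 overlapped between the groups.

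Olr1 (ENSMUSG00000030162, GRCm38 chr6:129485244-129507165, minus strand), the lectin-like receptor for oxidized low-density lipoprotein, measured 7.61, 9.53 and 8.33 CPM in the Cre– controls against 7.74, 4.69 and 4.66 CPM in PTEC DN RAR libraries. PTEC DN RAR replicate 1 lay among the controls and the other two lay below them. The log2 fold change of -0.57 (SE 0.22, 95% interval -1.08 to -0.07) did not pass (adjusted p = 0.0659 by edgeR), and without PTEC DN RAR replicate 1 it was -0.86 and passed (adjusted p = 0.011). With each of the 6 libraries left out in turn, it passed only this 1 time and ranged from -0.86 to -0.46.

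The cysteine-rich domain proteins were unevenly expressed within each group. Cd163 (ENSMUSG00000008845, GRCm38 chr6:124304656-124330527, plus strand), the receptor for hemoglobin bound to haptoglobin, measured 10.7, 23.3 and 22.4 CPM in the Cre– controls against 6.74, 15.6 and 6.72 CPM in PTEC DN RAR libraries. Control replicate 1 was low for its group and PTEC DN RAR replicate 2 high, so that the groups crossed. The log2 fold change of -0.96 (SE 0.39, 95% interval -1.83 to -0.08) did not pass (adjusted p = 0.0773 by edgeR). It was -1.25 without control replicate 1 (adjusted p = 0.0249) and -1.48 without PTEC DN RAR replicate 2 (adjusted p = 0.0122), and with each of the other 4 libraries left out it did not pass.

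Cd5l (ENSMUSG00000015854, GRCm38 chr3:87357881-87371073, plus strand) encodes a secreted protein of tissue macrophages, also known as apoptosis inhibitor of macrophage, which binds dying cells and debris in the injured tubule. It measured 20.9, 60.8 and 12.4 CPM in the Cre– controls against 9.37, 3.68 and 0.932 CPM in PTEC DN RAR libraries. The groups were separated only by the gap between control replicate 3 and PTEC DN RAR replicate 1, and the lowest library rested on 44 reads. The mean fell from 31.4 ± 25.9 to 4.66 ± 4.30 CPM (SD, n = 3 each), 14.9% of the control mean, and the log2 fold change was -2.76 (SE 0.78, 95% interval -4.54 to -0.98, adjusted p = 0.0223 by edgeR). Without control replicate 2 it was -1.89 and did not pass (adjusted p = 0.0694), nor did it pass without PTEC DN RAR replicate 2 (-2.62, adjusted p = 0.0666), and without PTEC DN RAR replicate 1 it was -3.78 (adjusted p = 0.0136). Reads of Cd5l per 100 reads of Marco ranged from 65.0 to 146 in the controls against from 29.7 to 225 in PTEC DN RAR libraries, and overlapped.

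**Figure D2:**
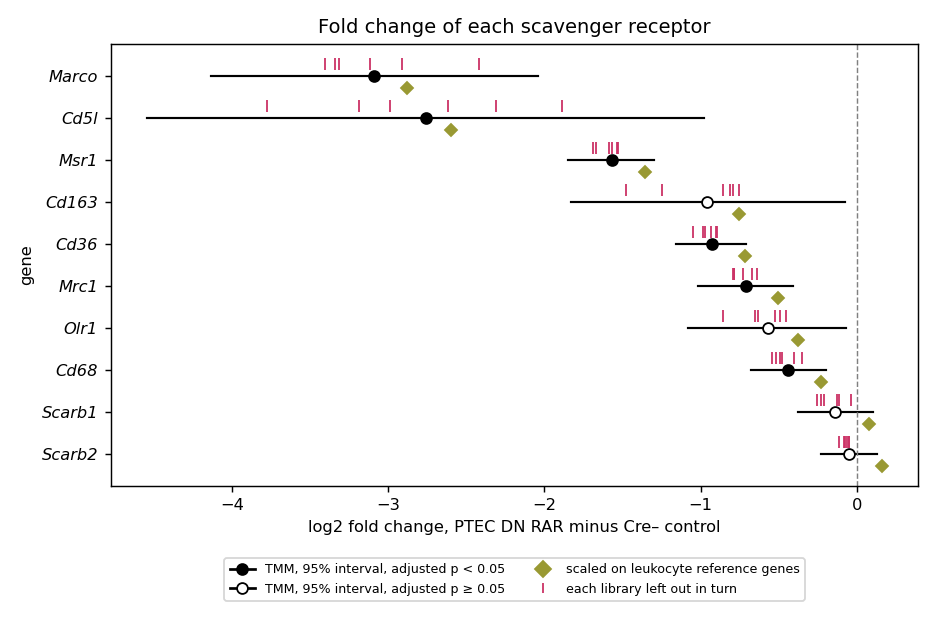
Log2 fold change (PTEC DN RAR minus Cre– control) of each of the 10 genes with its 95% interval, filled where the adjusted p was under 0.05; ticks above give the value with each of the 6 libraries left out in turn, and diamonds below the value with libraries scaled on leukocyte reference genes. Marco, Cd5l and Msr1 lie farthest to the left, the intervals of Marco and Cd5l are wide, and the intervals of Scarb1 and Scarb2 cross 0.

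Markers of the cells that the bead-selected fraction can hold were read in the same libraries. The general macrophage genes Csf1r (3591, 3292 and 3335 against 3522, 3469 and 3097 CPM, adjusted p = 0.909 by edgeR) and Adgre1 (1434, 1485 and 1406 against 1712, 1670 and 1225 CPM, adjusted p = 0.626) were abundant in all 6 libraries, which shows macrophages in each. Itgam, the gene for CD11B itself, fell from 1737, 1959 and 1995 CPM to 1366, 1303 and 980 CPM (log2 fold change -0.64, adjusted p = 0.00818 by edgeR). Of the 7 general macrophage markers 5 fell and 0 rose, of 8 kidney resident macrophage markers 1 fell and 1 rose, and of 8 markers of Ly6C-high monocytes, the type that enters injured tissue from blood, 6 fell and 0 rose. The summed level of the monocyte markers was between 1972 and 2084 CPM in the Cre– controls and between 1112 and 1264 CPM in PTEC DN RAR libraries. Of 10 neutrophil markers 8 passed the filter and 3 fell, with a summed level from 428 to 788 CPM against 281 to 407 CPM. Of 7 dendritic cell markers 1 fell and 3 rose, and 1 of the 6 NK and T cell markers that passed the filter (of 7) and 1 of 4 B cell markers rose. Markers of other kidney cells rose, namely 12 of 12 for the proximal tubule (summed level 964 to 1103 against 2293 to 3355 CPM), 6 of 6 for the thick ascending limb and distal tubule, 8 of 8 for endothelium, 4 of 4 for podocytes and 5 of 6 for stroma. Mitochondrial transcripts took 5.03% to 8.77% of gene counts in the controls against 10.38% to 12.08% in PTEC DN RAR libraries. The part of these shifts in the values of the receptor genes was not tested.

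Each receptor gene was then set against the reads of each of the 7 general macrophage markers in the same library. This description was added after the values had been seen. Here too the exact permutation test could give no p under 0.1, so the ratios are described by whether the groups overlap. The result depended on the marker for most of the genes. Msr1 and Marco were lower in every PTEC DN RAR library against all 7 markers, with log2 differences of the ratio from -1.64 to -0.75 for Msr1 and from -3.0 to -2.1 for Marco. Per 100 reads of Csf1r, Msr1 had 7.80, 10.4 and 11.1 reads in the Cre– controls against 2.96, 3.18 and 3.85 in PTEC DN RAR libraries, and per 100 reads of Itgam it had 16.1, 17.6 and 18.6 against 7.64, 8.47 and 12.2. Mrc1 had 43.5, 50.5 and 60.8 reads per 100 of Csf1r in the controls against 30.9, 33.8 and 30.6, but 89.9, 84.8 and 102 per 100 of Itgam against 79.6, 89.9 and 96.5. The groups of Mrc1 were thus apart against Csf1r and overlapped against Itgam, and over the 7 markers its log2 difference ran from -0.78 to 0.11, with no overlap against 3 of them. Cd36 was likewise lower without overlap against 3 of the 7, with log2 differences from -1.01 to -0.11. Cd68 was lower without overlap against 2 markers and higher without overlap against 2, from -0.51 to 0.38, and Cd5l was lower without overlap against 2, from -3.06 to -2.16. Scarb1 and Scarb2 were higher without overlap against 3 and 5 of the 7 and lower without overlap against 0. Scaling all libraries on the 25 leukocyte reference genes and not by TMM shifted the median over all genes (log2 fold change) from 0.04 to 0.24 and the calls over all genes from 2636 lower and 3640 higher to 748 lower and 4934 higher. Marco (-2.88), Cd5l (-2.60), Msr1 (-1.36), Cd36 (-0.72) and Mrc1 (-0.51) still passed as lower on that scale.

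Marco and Cd5l, the genes with the deepest falls, shared a high value in Cre– control replicate 2 with genes of large peritoneal macrophages. These are free cells of the abdominal cavity and are known to enter injured abdominal organs. Of 8 markers of these cells 4 fell and 0 rose, and their summed level was 76.2, 276 and 80.0 CPM in the Cre– controls against 53.2, 48.5 and 29.4 CPM in PTEC DN RAR libraries. Prg4, the marker with the greatest fold change, measured 19.2, 101 and 28.0 CPM against 7.02, 3.72 and 0.784 CPM (log2 fold change -3.69, adjusted p = 0.00742 by edgeR). Gata6, the defining transcription factor of these cells, was low throughout at 0.512, 3.19 and 0.158 CPM against 0.550, 0.613 and 0.551 CPM (adjusted p = 0.304). Of 5 markers of Kupffer cells, the liver macrophages that also express Marco and Cd5l, 4 passed the filter and 2 fell, Folr2 (log2 fold change -2.51) and Slc40a1 (-0.69), while the defining gene Clec4f had 0 reads in all 6 libraries, against a limit of 0.0636 to 0.101 CPM that a count of 0 allows (3 reads, counting error only). The other 2 tested did not pass, and both were highest in control replicate 2, Timd4 at 2.33, 12.2 and 4.78 CPM against 0.956, 1.23 and 4.03 CPM and Vsig4 at 2.66, 7.95 and 1.14 CPM against 1.29, 1.15 and 0 CPM. Of the peritoneal markers that did not pass, Cxcl13 measured 3.23, 15.4 and 1.55 CPM in the controls and 8.63, 9.73 and 0.318 CPM in PTEC DN RAR libraries, and Ltbp1 6.17, 17 and 5.35 CPM against 6.95, 7.61 and 6.53 CPM, so that both were highest in control replicate 2 and overlapped between the groups. These 4 genes were named after their values were seen. The part of such cells in the values of Marco and Cd5l was not tested.

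**Figure D3:**
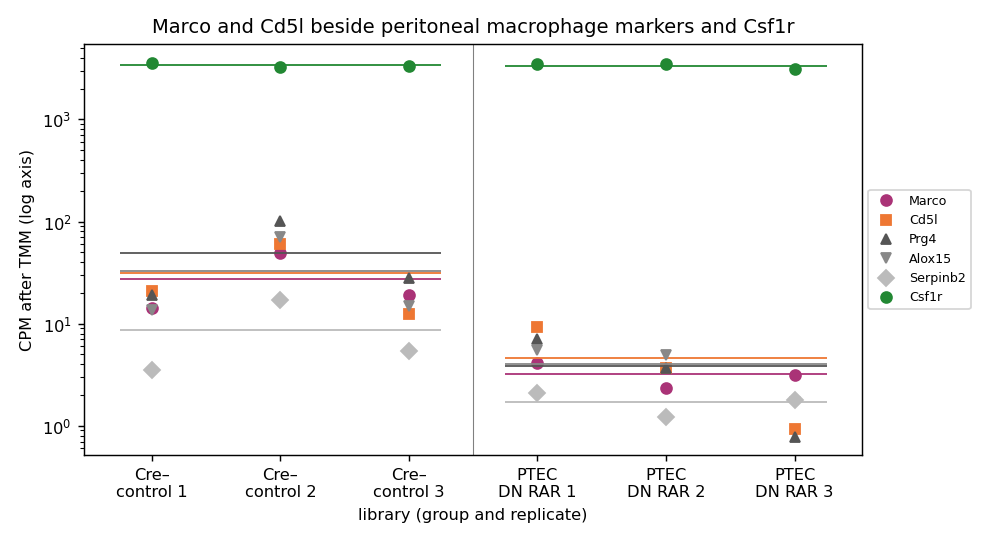
CPM after TMM scaling on a log axis in each of the 6 libraries for Marco, Cd5l, the large peritoneal macrophage genes Prg4, Alox15 and Serpinb2 (those with the greatest fold changes of their list) and Csf1r, with horizontal lines at group means. Marco, Cd5l and these 3 peritoneal genes are highest in Cre– control replicate 2 and lower in PTEC DN RAR libraries, which does not hold for every gene of the list, while Csf1r stays between 3097 and 3591 CPM.

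Sequences before the RefSeq start are shown for Marco and Cd5l, which had the deepest falls, and for both lysosomal proteins, Cd68, which fell, and Scarb2, which did not pass the test, so that the windows can be read side by side. Each is the 250 bases before the RefSeq start on GRCm38.p6, 5′ to 3′ on the strand of the gene, with matches on either strand to GAGGAA, a motif bound by the macrophage factor PU.1, and to TGANTCA, the AP-1 motif, in capitals. They lie at chr1:120505025-120505274 (minus), chr3:87357631-87357880 (plus), chr11:69666171-69666420 (minus) and chr5:92505658-92505907 (minus). RefSeq and GENCODE starts are the same base for Marco and Cd5l. They differ for Cd68 (69666170 and 69666153), whose window lies outside the GENCODE gene, and for Scarb2, whose RefSeq start (92505657) lies inside the GENCODE gene (start 92506833), so that its window falls within the span given above.
Marco: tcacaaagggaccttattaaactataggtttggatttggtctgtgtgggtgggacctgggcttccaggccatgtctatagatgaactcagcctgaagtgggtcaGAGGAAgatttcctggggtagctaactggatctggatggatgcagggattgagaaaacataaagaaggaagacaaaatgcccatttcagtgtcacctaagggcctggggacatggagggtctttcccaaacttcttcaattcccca
Cd5l: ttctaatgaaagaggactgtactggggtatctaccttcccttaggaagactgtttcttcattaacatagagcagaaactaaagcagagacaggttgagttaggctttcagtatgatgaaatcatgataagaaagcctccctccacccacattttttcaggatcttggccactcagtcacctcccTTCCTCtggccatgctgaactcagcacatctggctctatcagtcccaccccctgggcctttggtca
Cd68: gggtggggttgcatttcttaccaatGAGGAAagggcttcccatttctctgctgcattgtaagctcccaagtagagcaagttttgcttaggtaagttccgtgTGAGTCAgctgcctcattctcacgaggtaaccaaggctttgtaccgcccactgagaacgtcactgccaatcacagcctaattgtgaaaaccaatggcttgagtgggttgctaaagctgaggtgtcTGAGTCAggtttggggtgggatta
Scarb2: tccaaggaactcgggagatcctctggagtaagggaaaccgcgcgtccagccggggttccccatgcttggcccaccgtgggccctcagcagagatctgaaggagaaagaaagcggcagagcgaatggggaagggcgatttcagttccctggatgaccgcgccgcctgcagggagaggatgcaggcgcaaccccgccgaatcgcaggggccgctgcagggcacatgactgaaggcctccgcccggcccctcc

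The Marco and Cd5l windows each hold GAGGAA 1 time, that of Cd5l on the other strand, the Cd68 window holds it 1 time beside 2 matches to TGANTCA, and the Scarb2 window holds neither. Windows could be read for 8 of the 10 genes. That of Cd36 is also within the GENCODE gene, with a RefSeq start at 17835896 against 17888801. Among these, GAGGAA was found in 5 (Marco, Mrc1, Cd5l, Olr1 and Cd68) and in 23.3% of 32851 windows of the same length, and TGANTCA in 2 (Olr1 and Cd68) and in 6.7% of all windows. CANGTG, the E-box form bound by lysosomal gene regulators such as TFEB, was found in Mrc1, Scarb2 and Cd163 and in 39.5% of all windows, TTGCNNAA of the C/EBP factors in Cd68 and in 9.6%, and AGGTCA, the nuclear receptor half-site, in Cd36 and Olr1 and in 14.0%. A match is a description of the letters in these windows and says nothing of binding. Spi1, the gene for PU.1, named here after its values were seen, measured 389, 340 and 349 CPM in the Cre– controls against 392, 369 and 327 CPM in PTEC DN RAR libraries (log2 fold change 0.01, adjusted p = 0.928 by edgeR).

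Other receptors of the scavenger type moved in both directions, as did the genes tested as a whole (17.1% lower and 23.6% higher). Of 20 further scavenger receptor genes 17 passed the filter, 4 fell, 6 rose and 7 did not pass the test, with a median log2 fold change of 0.20. Those that fell were Scarf1, a receptor for modified lipoproteins (-1.07, adjusted p = 0.00591), the hyaluronan receptor Cd44 (-0.76, adjusted p = 0.000562), Lrp1, a large endocytic receptor of macrophages (-0.57, adjusted p = 0.00266), and Stab1 (-0.54, adjusted p = 0.0172), a clearance receptor of macrophages and sinus endothelium. Stab1 measured 2304, 2220 and 2761 CPM against 1764, 1404 and 1854 CPM, without overlap. Among those that rose, Scara5 (1.87), Cd5 (1.35), Scarf2 (1.16) and Mrc2 (1.10) were below 10 CPM in every library, and Vldlr, the very low-density lipoprotein receptor, went from 9.40, 8.39 and 9.54 CPM to 25.2, 28.4 and 34.4 CPM (log2 fold change 1.69). The number that rose was 3 without control replicate 2, 2 without control replicate 3 and 3 without PTEC DN RAR replicate 2.

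Genes that store, hydrolyze or export the lipid taken up by these receptors were divided as well. Of 18 such genes 6 fell, 4 rose and 8 did not pass the test, with a median log2 fold change of -0.23. Among all genes tested 17.1% were lower and 23.6% higher, so that rises in this list were about as frequent as in general. Fabp5, a fatty acid carrier, measured 50.8, 26.8 and 38.9 CPM in the Cre– controls against 11.4, 6.95 and 8.14 CPM in PTEC DN RAR libraries, and had a log2 fold change of -2.14 (edgeR adjusted p = 0.000599). Plin2, which coats lipid droplets, measured 441, 329 and 360 CPM against 165, 152 and 219 CPM and had a log2 fold change of -1.08 (adjusted p = 0.00149). The cholesterol exporter Abca1 (-0.84, adjusted p = 0.00273), the lysosomal lipase Lipa (-0.45) and the cholesterol esterifying enzyme Soat1 (-0.44) fell as well. Those that rose included Acsl1 (1.02), which activates fatty acids, Sqle (0.77) of cholesterol synthesis, Fabp4 (0.74) and Cyp27a1 (0.52), a sterol hydroxylase. With leukocyte reference scaling 3 of the 18 fell, and without control replicate 3 the number that rose was 2.

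The genes that bind or process hemoglobin, heme and its iron moved in 1 direction where they passed. Of 9 genes 8 passed the filter, 5 fell and 0 rose (0 also by DESeq2 and limma-voom, and 0 at an unadjusted p under 0.05), with a median of -0.57. Over all genes tested 17.1% fell and 23.6% rose. Heme oxygenase 1 (Hmox1) measured 1663, 1100 and 952 CPM in the Cre– controls against 526, 292 and 532 CPM in PTEC DN RAR libraries, with a log2 fold change of -1.46 (adjusted p = 0.00372 by edgeR). The iron exporter Slc40a1 (-0.69), the ferritin light chain Ftl1 (-0.59), the heme transporter Slc48a1 (-0.56) and the biliverdin reductase Blvra (-0.45) fell less. The number that fell was 3 without control replicate 1, 3 without PTEC DN RAR replicate 2 and 1 with leukocyte reference scaling.

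Regulators and sheddases of scavenger receptors formed the last group. Of 15 genes 6 fell, 2 rose and 7 did not pass the test, with a median of -0.21, where 17.1% of all genes tested fell and 23.6% rose. Among those that fell were Cebpb (-0.86, adjusted p = 0.00391), Mitf (-0.83, adjusted p = 0.00106), Maf (-0.56) and Nfe2l2 (-0.56), the factor that drives oxidative stress genes, each without overlap between the groups. Nr1h3, the gene for the sterol sensor LXR alpha, measured 13.9, 11.9 and 9.82 CPM in the Cre– controls against 20.0, 25.2 and 15.2 CPM in PTEC DN RAR libraries (log2 fold change 0.76, adjusted p = 0.0171), and Tfeb, a regulator of lysosomal genes, rose by 0.34 (adjusted p = 0.0289). The number of regulators that rose was 0 without control replicate 2 or without control replicate 3, 1 without PTEC DN RAR replicate 1 or 2, and 5 with leukocyte reference scaling.

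**Figure D4:**
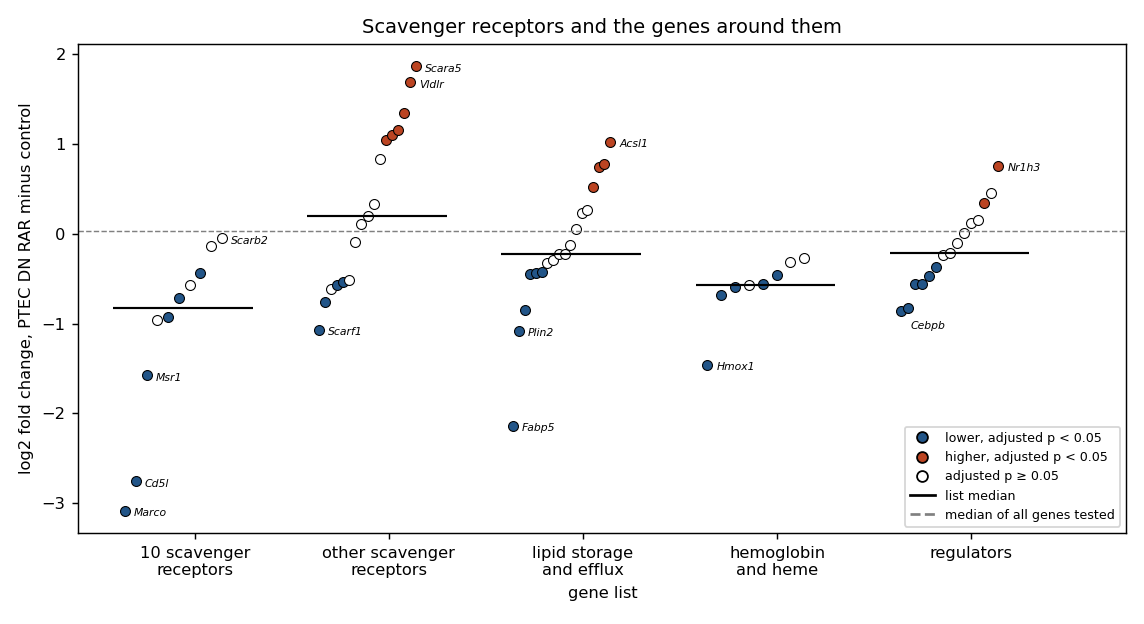
Log2 fold change (PTEC DN RAR minus Cre– control) of every gene that passed the filter in the 10 scavenger receptors and the 4 further lists, 1 point per gene, filled blue where lower and red where higher at an adjusted p under 0.05; solid lines give list medians and the dashed line the median of all genes tested. The 10 receptors have the lowest median (-0.82) of the 5 lists, and like the hemoglobin and heme genes have no point above 0, while the other scavenger receptors spread to both sides, from -1.07 for Scarf1 to 1.87 for Scara5. Among the cell type marker lists, not drawn here, medians were lower still for Ly6C-high monocytes (-0.86), large peritoneal macrophages (-1.56) and Kupffer cells (-1.94). These lists and that of neutrophils also had no tested gene above 0.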

How the data were processed

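The authors sequenced poly(A) RNA of CD11B+ kidney cells, with 3 libraries per genotype. The authors deposited raw read counts per Ensembl gene, not normalized. The submitters' processing notes name STAR 2.5.0a, HTSeq 0.6.1, the GRCm38 build, edgeR and limma. The annotation release and strand setting of the counting are not given in the sources used here. No exon of the 10 genes overlaps another gene in GENCODE M21. Alignments to more than 1 place made up 42.93% to 47.75% of all deposited counts per library, a share that need not equal the share of reads. They were not counted on genes, which lowers counts of genes with near-identical copies. Summed gene counts ranged from 29318041 to 46517005 per library, at which 3 reads correspond to 0.0636 to 0.101 CPM. Counts of any pair of libraries within a group differed beyond sampling noise (chi-square divided by its degrees of freedom at least 27.1), so no library appears to have been entered more than once. The labels do not say in words that each library is 1 animal, so p-values measure the spread between these libraries.

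Of 46612 gene lines 9 repeated an identifier and were collapsed, leaving 46603 genes. In R 4.3.3, edgeR 4.0.16 supplied the filter on low counts (filterByExpr), the TMM factors and the quasi-likelihood test (glmQLFit, then glmQLFTest). P values of 15440 genes were adjusted after Benjamini and Hochberg and read at 0.05. The SE is the log2 fold change divided by the square root of F. The script was tested on simulated data. Alternatives used DESeq2 1.42.0, limma-voom 3.58.1, other scalings and filters, the replicate block, and each library left out. Scaling on Csf1r reads and ratios to macrophage markers were added after seeing the data. Python 3.11, pandas 2.3.3, numpy 2.4.6 and matplotlib 3.10.9 made tables and figures. Windows before gene starts come from RefSeq on GRCm38.p6 and matched 8 of the 10 genes. The 10 genes and all lists were chosen with earlier results of these data known. All 10 were named, and from every other list at most 5 genes per direction, those with the greatest fold change among genes past the threshold, plus defining markers. Spi1, Cxcl13, Ltbp1, Timd4 and Vsig4 fall outside this rule and were named after their values were seen.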

Additional observations from a re-analysis of the deposited data

How the results depend on the processing

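Of the 10 scavenger receptor genes, 6 fell under the reported settings. The number was 7 with DESeq2, 6 with limma-voom, 7 with DESeq2 size factors, 6 with library size alone, 5 with leukocyte reference genes, 8 without a filter, 6 with at least 10 counts in every library, 6 with scaling on Csf1r reads, and between 5 and 7 with each library left out, and 0 rose under any of these. The number lower over all genes moved as well. It was 2636 of 15440 under the reported settings, 3278 with DESeq2, 2589 with limma-voom, 3082 with DESeq2 size factors and 2455 with library size alone. It was 1825 with scaling on Csf1r reads, 2741 of 25387 without a filter and 2386 of 13813 with at least 10 counts in every library. With each library left out it lay between 1874 and 2824. Marco, Msr1, Cd36 and Mrc1 fell under all 15 planned and added alternatives. With leukocyte reference genes Scarb1 turned to a log2 fold change of 0.078 (adjusted p = 0.667 by edgeR) and Scarb2 to 0.158 (adjusted p = 0.221), and Cd68 moved to -0.23, while over all genes 748 were lower and 4934 higher in place of 2636 and 3640. Cd163 passed without a filter (-0.99, adjusted p = 0.0177), and Olr1 passed with DESeq2 (-0.62, adjusted p = 0.0221), with DESeq2 size factors (adjusted p = 0.0483) and without a filter (adjusted p = 0.0346). The cause of these changes was not tested. Deviations of same-numbered libraries from their group means correlated at -0.015, 0.211 and 0.029, and not every library correlated best with its own number. With 3 libraries per group this cannot decide whether the replicate numbers pair the libraries. With the replicate block 7 of the 10 genes fell, Cd163 being the added one (-0.99, adjusted p = 0.0225), 0 rose, and over all genes 2606 were lower and 3612 higher. The lowest count of any of the 10 genes was 44 reads, for Cd5l in 1 library.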
